A study of Mus musculus with 21 samples.

Results

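Ventral hypothalamus (VH) from mice that had moved from high-fat diet (HFD) to regular chow (RC) a week earlier was compared with VH from mice that had eaten RC throughout. The members were the 10 libraries, of 21 in the series, labelled for these diets: 5 of the HFD → RC group and 5 of the RC NoDS (no diet switch) group. Both groups were eating RC when tissue was taken, so the comparison asked which transcripts differed between mice with and without HFD in their past. Only the HFD → RC mice had been switched, and effects of the earlier diet, of the switch itself and of food intake or body weight at collection cannot be told apart in it. Every difference below is HFD → RC over RC NoDS unless another pair is named.

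All mice were male C57BL/6J, purchased at 12 to 14 weeks of age. They ate the first diet for 8 to 10 weeks, after which DS (diet switch) groups were moved to the other diet and NoDS groups stayed on theirs. Tissue was collected on day 7 after the DS at ZT6 (hours after lights-on), after 3 h of forced wakefulness. Each library held mRNA of 2 mice of the same group pooled equally, from punches that had been selected on *agrp* and *pomc* against *hcrt*, so a library and not a mouse was the replicate and those genes had also served to choose the tissue. RC → HFD (n = 6) and HFD NoDS (n = 5) mice, which were eating HFD at collection, entered the same model and are used below only as references.

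The VH punches took in the arcuate, ventromedial and paraventricular nuclei. In the first 2 of these, circulating leptin, insulin and ghrelin act on neurons that set food intake and energy expenditure. In the arcuate nucleus, neurons making *agrp* and *npy* promote feeding and neurons making *pomc* restrain it, and tanycytes and oligodendrocytes lie among them. Thyrotropin-releasing hormone, encoded by *trh*, starts the thyroid axis from the paraventricular nucleus and is also made by other hypothalamic neurons, some of which lower food intake.

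Deposited counts summed to between 16381363 and 16390598 reads per library in these 10 libraries, since the authors had re-sampled all libraries to a common depth. Normalized counts below are these reads divided by each library's relative TMM-scaled size. An error based on reads would cover counting only, and all tests used the spread between libraries. Of 21654 genes in the table, 12768 passed the High Filter, a mean of 50 or more reads across the 21 libraries, and were tested. Between libraries of the same group the chi-square per degree of freedom of the counts ran from 10.6 to 31.2, above the 1 that counting alone would give.

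The RC NoDS libraries missed fewer low-count genes than the HFD → RC libraries. A set of 3116 genes had a mean count from 5 to 50. Of these, 9.24%, 20.5%, 5.68%, 15.1% and 31.9% were not seen in HFD → RC replicates 13 to 17, against 1.12%, 3.63%, 2.34%, 7.22% and 1.80% in RC NoDS replicates 1, 2, 3, 5 and 6. HFD → RC replicate 15 was the only one to fall within the RC NoDS range, and replicates 17 and 14 were highest. High shares were not confined to HFD → RC. The HFD NoDS libraries had 16.2%, 32.9%, 14.6%, 9.88% and 7.70%, all above RC NoDS, and the RC → HFD libraries 3.40%, 2.31%, 6.58%, 19.2%, 17.6% and 22.4%. The means were 16.5% ± 10.3 (SD, n = 5) and 3.22% ± 2.42 (n = 5; exact two-sided permutation p = 0.0159, adjusted over 4 library measures 0.0476). The TMM factor, which corrects for the composition of a library, averaged 0.995 ± 0.00872 and 1.01 ± 0.00930 (exact permutation p = 0.0238, adjusted 0.0476). Total counts (exact permutation p = 0.452) and the share of counts in the 10 most abundant genes (2.60% ± 0.160 and 2.46% ± 0.113, exact permutation p = 0.167) did not pass. The smallest p that 5 libraries against 5 can give is 0.00794. The comparison was also fitted with the share at 0 as a covariate, and several results below moved in that fit.

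*Trh* was higher in HFD → RC than in RC NoDS mice by 2.43-fold, with the smallest p of the 12768 genes. The RC NoDS libraries had 531, 619.5, 459.7, 683 and 662 normalized counts and the HFD → RC libraries 1466, 1607, 1158, 1290.0 and 1666. Every HFD → RC library was above every RC NoDS library, and replicate 15 was the lowest of them. The means were 1437 ± 213 (SD, n = 5) and 591 ± 93.8 (n = 5), a log2 fold change of 1.28 (SE 0.166, edgeR adjusted p = 2.39e-04). The gene (ENSMUSG00000005892) lies on the minus strand at chr6:92192055-92194644 (mm9), and no other annotated gene shares its exons. It was called in each of the 37 other settings, with a log2 fold change between 1.01 and 1.35 and an adjusted p of at most 0.0509, which was reached when the summed oligodendrocyte marker counts entered the model. With the share of low-count genes at 0 as a covariate the log2 fold change was 1.01 (adjusted p = 0.00937). In bulk tissue, fewer cells of a type and less RNA per cell cannot be told apart, here and in all results below.

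The mice that stayed on HFD had higher *trh* counts still, at 1757, 2664, 2246, 1847 and 1717 in the HFD NoDS libraries, all above the highest HFD → RC library. The log2 fold change of HFD NoDS over RC NoDS was 1.79 (SE 0.167, adjusted p = 2.36e-07). That pair shares the RC NoDS libraries with HFD → RC over RC NoDS, so the 2 values stand side by side only. HFD → RC over HFD NoDS was -0.51 and did not pass (adjusted p = 0.481), although the libraries did not overlap. RC → HFD libraries ran from 1010.4 to 2083 with a median of 1097.

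**Figure D1:**
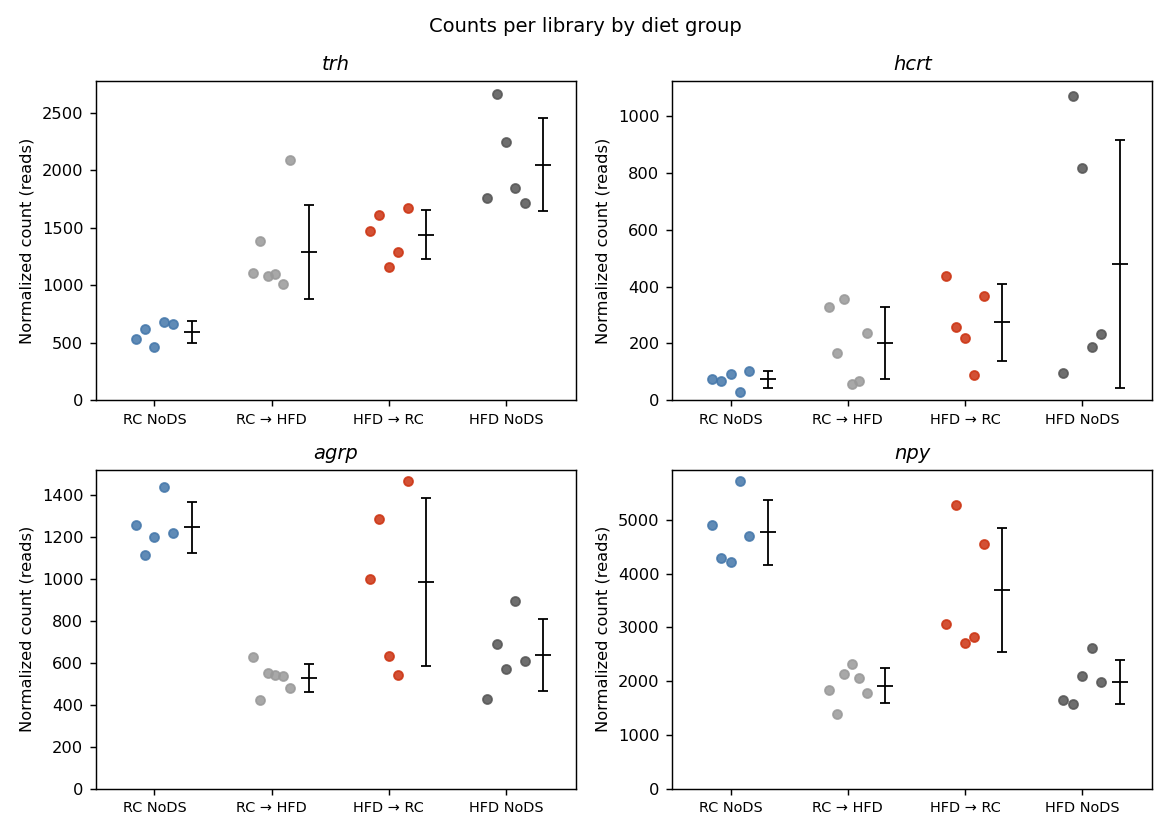
Normalized counts (reads, linear axes from 0) of *trh*, *hcrt*, *agrp* and *npy* in each library of the 4 diet groups, with the mean ± SD beside the points. For *trh* the 5 HFD → RC points lie between 1158 and 1666, above all RC NoDS points, and for *agrp* the HFD → RC points spread from 544 to 1470.

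Because *trh* had the smallest p, its promoter is shown. The RefSeq window on build GRCm38.p6 covers chr6:92244601-92244900 on the minus strand and is printed 5′ to 3′ along the gene, with capitals marking matches to TGACG, the core of the cyclic AMP response element, and AGGTCA, a nuclear receptor half-site, on either strand. The motifs were chosen with the *trh* result known.
trh promoter: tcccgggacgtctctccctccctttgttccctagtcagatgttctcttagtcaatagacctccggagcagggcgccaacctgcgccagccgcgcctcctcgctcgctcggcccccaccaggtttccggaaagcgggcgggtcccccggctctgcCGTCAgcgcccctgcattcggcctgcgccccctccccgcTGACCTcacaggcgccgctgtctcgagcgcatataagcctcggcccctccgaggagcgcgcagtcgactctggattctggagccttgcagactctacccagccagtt
TGACG matched 1 time, on the reverse strand between 92 and 96 bases before the start, and at least 1 match was found in 20.8% of 32851 promoter windows of this length. AGGTCA also matched 1 time on the reverse strand, between 52 and 57 bases before the start, and 16.3% of windows held it. The matches do not overlap. They describe the letters of the window, and binding was not measured.

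Among the genes that passed the test, more had higher than lower counts in HFD → RC mice. At an adjusted p under 0.15, 36 of 12768 genes were called (0.282%), 32 with higher counts (0.251%) and 4 with lower counts (0.0313%) in HFD → RC. *Trh* was 1 of them, and it was the only gene under an adjusted p of 0.05; the other 35 lay between 0.0614 and 0.146. At an unadjusted p under 0.05, 659 genes were higher (5.16%) and 375 lower (2.94%). In 104 genes all 5 HFD → RC libraries lay above all 5 RC NoDS libraries (0.815%), and in 69 they lay below (0.54%). Counts within gene lists below stand beside these shares over all genes. Among the called genes, 18 had such separate libraries and 18 overlapped. Absolute log2 fold changes of the called genes ran from 0.25 to 2.53 with a median of 0.55, and the median over all genes tested was -1.15e-04.

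The number of called genes depended on single libraries and on the tool. It fell to 1 without HFD → RC replicate 13 or 14 or without RC NoDS replicate 1, 2 or 5, and to 2 without HFD → RC replicate 15. It was larger by over 1.5 times when HFD → RC replicate 16 (205 genes), HFD NoDS replicate 20 (145), RC → HFD replicate 12 (76) or RC NoDS replicate 6 (67) was left out, and was 23 without RC → HFD replicate 7. DESeq2 called 147 genes (113 higher), limma-voom 7 (6 higher), limma-trend 7 (6 higher) and limma-voom with library weights 245 (195 higher). Calls by these tools within gene lists below stand beside these totals. Scaling by library size or by the upper quartile in place of TMM called 10 genes, 9 of them higher. With the share of low-count genes at 0 as a covariate, *trh* was the 1 gene called. The number of genes with separate libraries, 173 in both directions together, was above 1.5 times that without RC NoDS replicate 2 (260), 3 (321), 5 (270) or 6 (343) and without HFD → RC replicate 13 (271), 14 (326), 16 (527) or 17 (324), since fewer libraries then had to separate. On the deposited counts without TMM, 69 genes were higher and 99 lower in all libraries, so the split by direction turned with the scaling.

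Transcripts of myelin and its makers formed the most numerous group among the called genes. Of 16 oligodendrocyte markers tested, 16 had a higher mean in HFD → RC, 7 were called, 15 had an unadjusted p under 0.05, and the median log2 fold change was 0.86, beside -1.15e-04 over all genes. The shares over all genes were 0.251% called as higher and 5.16% higher at an unadjusted p under 0.05. DESeq2 called 8 of the markers and limma-voom with library weights 12, but limma-voom and limma-trend called 0. Over all genes, DESeq2 called 113 as higher, limma-voom with library weights 195, and limma-voom and limma-trend 6 each. The called markers included *mobp*, *ermn*, *mbp*, *fa2h*, *gm98* (named *myrf* in later annotations) and *mal*. The summed marker counts were 40580, 47093, 59157, 41687 and 60742 in the RC NoDS libraries and 112986, 151206, 88948, 50155 and 70217 in HFD → RC replicates 13 to 17. Replicates 13 and 14 were highest and replicates 15 and 17 were also above all RC NoDS libraries, whereas replicate 16 lay inside the RC NoDS range. *Mbp*, the most abundant of the list per kilobase of exon, encodes a protein that holds the layers of the myelin sheath together. It had 16639.6, 19219, 24966, 18437 and 28102 normalized counts in RC NoDS and 50999, 75452, 40222, 21014 and 32442 in HFD → RC libraries, with replicate 16 overlapping RC NoDS. Its log2 fold change was 1.04 (SE 0.242, edgeR adjusted p = 0.115).

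*Mobp*, which encodes another structural protein of central myelin and lies at chr9:120058860-120090602 on the plus strand, had 3901, 4691, 6464, 4536 and 5711 normalized counts in RC NoDS and 15164, 17928, 10598, 5565 and 8446 in HFD → RC libraries. Replicates 13 and 14 held the highest counts and replicate 16 again fell among the RC NoDS values, so 4 of 5 were above all RC NoDS libraries. The log2 fold change was 1.19 (SE 0.239, adjusted p = 0.0614). *Ermn*, encoding the cytoskeletal protein ermin of mature oligodendrocytes, was the only called marker whose libraries did not overlap. It had 284, 351, 407, 182 and 315 normalized counts in RC NoDS and 830.4, 1023, 593, 416 and 557 in HFD → RC (log2 fold change 1.15, SE 0.244, adjusted p = 0.0927), and its exons overlap *galnt5* on the opposite strand. Further called markers were *fa2h*, which hydroxylates fatty acids of myelin lipids (log2 fold change 1.08), *gm98*, the transcription factor that switches on myelin genes (0.97), and *mal*, a membrane protein of myelin (0.74). Markers that were not called included *trf* (1.03, adjusted p = 0.164), *mag* (0.85, 0.168), *opalin* (0.89, 0.406), *mog* (0.64, 0.415) and *cnp* (0.50, 0.298), while *aspa* had the smallest difference (0.21, 0.930).

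Other called genes lie outside the marker list, and those of this paragraph were grouped after their calls were seen, with no list behind the grouping. *Sept4*, a septin found in myelin, averaged 2693 ± 729 in HFD → RC and 1488 ± 279 in RC NoDS libraries (SD, n = 5 each; log2 fold change 0.86, adjusted p = 0.0614), and *gm11492* shares its exons on the same strand. *Anln*, encoding the actin-binding protein anillin, averaged 489.9 ± 197 and 206 ± 58.1 (log2 fold change 1.25). *Gal3st1*, which makes the myelin lipid sulfatide, averaged 233 ± 68.7 and 118 ± 38.1 (0.98), with all HFD → RC libraries above all RC NoDS libraries. *Prr18* had a log2 fold change of 0.96 (adjusted p = 0.0614) and *dbndd2* of 0.65 (adjusted p = 0.120), and *dbndd2* shares exons with a second annotated gene of that name on the same strand. *Tppp*, a tubulin-binding protein, had 5603, 6616, 6518, 5038 and 5719 normalized counts in RC NoDS and 7989, 7408, 8418, 7116 and 6683 in HFD → RC libraries. These groups did not overlap, and the log2 fold change was 0.35 (SE 0.0768, adjusted p = 0.110). The 8 genes listed for oligodendrocyte precursors all had higher means in HFD → RC with a median log2 fold change of 0.30. None passed in edgeR (5 at an unadjusted p under 0.05, where 5.16% of all genes were higher) and DESeq2 called 2. *Bcas1* was nearest to a call (0.82, adjusted p = 0.159). Whether precursors differed apart from mature oligodendrocytes was not tested.

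These calls ended when single libraries were left out. Without RC NoDS replicate 1 the adjusted p of *mobp*, *sept4* and *prr18* was 0.334, that of *ermn* 0.382, that of *gal3st1* 0.452 and that of *mbp*, *mal*, *gm98*, *fa2h*, *anln*, *tppp* and *dbndd2* 0.441, and none of them was called without HFD → RC replicate 13, 14 or 15 or RC NoDS replicate 2 or 5 either. The median of the oligodendrocyte list kept its sign in each of the 35 settings run for it. It ran from 0.65 without HFD → RC replicate 14 to 1.01 without replicate 16. In a model with the log2 summed marker counts of each library as a covariate, chosen after the data had been seen, 3 genes were called, of which *trh* was the 1 shared with the 36. The log2 fold change of *mbp* was -0.02 and of *mobp* 0.16 in that model. *Mbp*, *mobp* and the other markers make up that sum, so by construction the covariate removes what they share with it. A change in the marker level by placement of the punch and by diet cannot be told apart here.

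**Figure D2:**
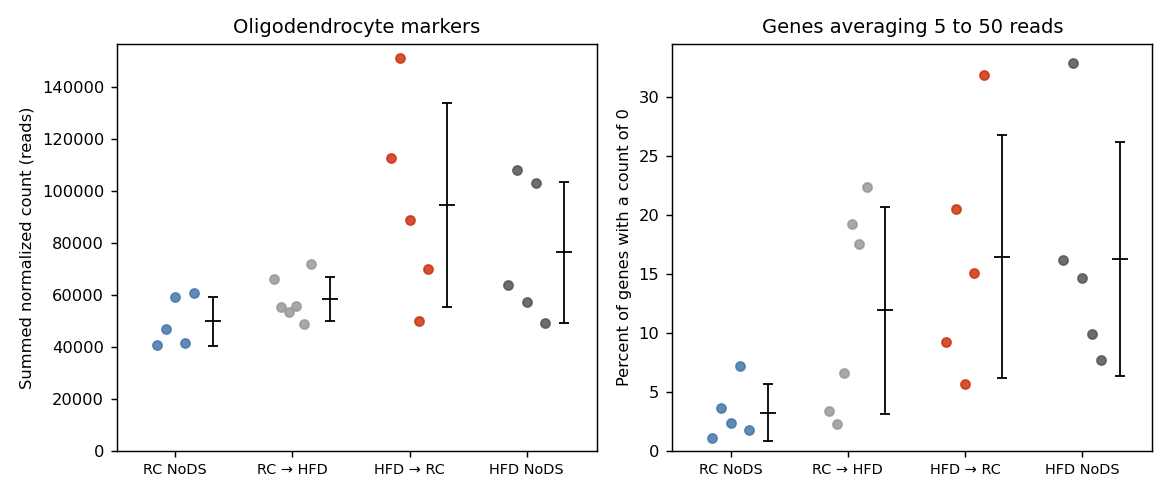
Summed normalized counts of 16 oligodendrocyte markers (left, reads) and the percent of low-count genes (means from 5 to 50) at 0 (right) in each library of the 4 diet groups, with the mean ± SD beside the points and axes from 0. HFD → RC replicates 13 and 14 lie highest at left (112986 and 151206), and 4 of the 5 HFD → RC points lie above all RC NoDS points at right.

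The *mobp* promoter is shown as that of the called myelin gene with the largest log2 fold change in its list. The RefSeq window (GRCm38.p6) covers chr9:120149492-120149791 on the plus strand, and capitals mark matches to ACAAAG, the core bound by SOX proteins, which were counted after the window had been viewed.
mobp promoter: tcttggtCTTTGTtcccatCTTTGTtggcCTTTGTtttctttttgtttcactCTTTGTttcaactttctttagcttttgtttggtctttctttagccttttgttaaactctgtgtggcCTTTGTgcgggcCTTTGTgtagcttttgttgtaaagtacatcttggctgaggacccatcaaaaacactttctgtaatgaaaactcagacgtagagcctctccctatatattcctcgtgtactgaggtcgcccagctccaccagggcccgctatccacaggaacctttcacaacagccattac
The motif matched 6 times, all on the reverse strand and between 115 and 243 bases before the start, and the matches do not overlap. At least 1 match was found in 18.7% of the 32851 windows and 6 or more in 1 window. The repeated short letters of this stretch were not compared with other repeats, and no binding was measured.

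Some genes of large axons were also higher in HFD → RC. Of 19 tested genes for neurofilaments and axonal transport, 16 had a higher mean in HFD → RC, 3 were called and 8 had an unadjusted p under 0.05, with a median log2 fold change of 0.13 (0.08 without RC NoDS replicate 1). Over all genes tested, 0.251% were called as higher and 5.16% were higher at an unadjusted p under 0.05. The higher level was not particular to HFD → RC. Summed counts of the list averaged 145752 in RC NoDS, 166963 in HFD → RC, 165625 in RC → HFD and 157655 in HFD NoDS libraries. All RC → HFD libraries (160088 to 175289) were above all RC NoDS libraries (132953 to 152421). *Kif5a* (chr10:126662755-126700136), a kinesin motor that carries neurofilaments along axons, had 21263, 24953, 27981, 23641 and 28502 normalized counts in RC NoDS and 33260.4, 34771, 40922, 27441 and 35272 in HFD → RC libraries. HFD → RC replicate 16 was the lowest and fell below 2 of the RC NoDS libraries, and the other 4 were above all of them. The log2 fold change was 0.44 (SE 0.0888, edgeR adjusted p = 0.0614). *Nefh*, encoding the heavy neurofilament subunit, had 1074, 1122, 1022, 1289 and 1238 in RC NoDS and 1444, 1467, 1461, 1434 and 1559.7 in HFD → RC libraries, which did not overlap (log2 fold change 0.36, adjusted p = 0.132). *Nefm*, the medium subunit, averaged 2266 ± 429 and 1540.2 ± 179 (log2 fold change 0.56, adjusted p = 0.146) and shares exon positions with *nefl* on the opposite strand in this annotation. *Thy1* (0.47, adjusted p = 0.167), *nefl* (0.31, 0.369), *ina* (0.22, 0.272) and *mapt* (0.16, 0.271) were not called. *Kif5b* and *kif3a*, motors of the same class, had log2 fold changes of -0.01 and -0.04. Without RC NoDS replicate 1 the adjusted p was 0.334 for *kif5a*, 0.441 for *nefh* and 0.458 for *nefm*, and in the list DESeq2 called 4 genes, limma-voom 1, limma-trend 1 and limma-voom with library weights 6.

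Other called genes encoded parts of a membrane skeleton, a calcium sensor, a transporter and receptors. *Spnb1*, erythroid-type beta spectrin that neurons also make, averaged 2797 ± 346 in HFD → RC and 2112 ± 267 in RC NoDS libraries (log2 fold change 0.40). *Hpca*, the calcium sensor hippocalcin, had 1254, 1388, 1393, 1361 and 1377 normalized counts in RC NoDS and 2578, 1734, 2014, 1598 and 1927 in HFD → RC libraries, and the groups did not overlap (log2 fold change 0.54, SE 0.110, adjusted p = 0.0636). *Cntn2*, an axonal adhesion protein of the region beside the node of Ranvier, averaged 3640.3 ± 409.7 and 2719 ± 241 (0.42), and *sez6*, a synaptic membrane protein, 2044 ± 137 and 1617 ± 88.4 (0.34). *Lynx1*, which binds nicotinic receptors, had a log2 fold change of 0.38, and *tubb4*, a beta tubulin whose reads could be confused with those of near-identical tubulins, of 0.33. *Adora1*, the adenosine A1 receptor, averaged 1679 ± 210.4 and 1239.9 ± 172 (0.44, adjusted p = 0.115), and *slc6a9*, a glycine transporter of glia, 1028 ± 154 and 756 ± 112 (0.44, adjusted p = 0.140). *Epha7*, an ephrin receptor (0.93), *arrb1*, beta-arrestin 1 (0.30), and *pkp4*, a junction protein (0.33), were called as well; these 3 and *nefm* were named after their values had been seen. Exons of *hpca*, *adora1* and *slc6a9* overlap genes on the opposite strand (*tmem54*, *mybph* and *b4galt2* among them), so reads may be shared. Without RC NoDS replicate 1 each of these genes had an adjusted p of at least 0.334, and none was called without HFD → RC replicate 13 or 14.

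*Nxph4*, a neurexophilin that marks small populations of neurons, had the largest log2 fold change of the called genes. It had 24.4, 38.2, 37.6, 57.0 and 45.6 normalized counts in RC NoDS and 682, 105, 24.4, 119 and 242 in HFD → RC libraries. Replicate 13 was far above the rest, 4 of 5 HFD → RC libraries were above all RC NoDS libraries, and replicate 15 equalled the lowest RC NoDS library at the digits given. The log2 fold change was 2.53 (SE 0.540, adjusted p = 0.0927) and ran from 1.59 to 2.82 over the other settings, and limma-voom gave an adjusted p of 0.430. *Lhx1*, a transcription factor of the suprachiasmatic and dorsomedial region, had 68.4, 59.8, 77.3, 78.0 and 102 in RC NoDS and 241, 150.5, 181, 122 and 145 in HFD → RC libraries, without overlap (log2 fold change 1.12, SE 0.274, adjusted p = 0.140). Without RC NoDS replicate 1 the adjusted p was 0.441 for both genes. Without HFD → RC replicate 15 that of *nxph4* was 0.0115, and *lhx1* was not called.

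Called genes with high expression in astrocytes included *sparcl1* and *s100b*. *Sparcl1*, a secreted matrix protein of astrocytes, had 32597, 34042, 37152, 33254 and 35705 normalized counts in RC NoDS and 43125, 40891, 44388, 37258 and 40201 in HFD → RC libraries. Each HFD → RC library was above each RC NoDS library, although replicate 16 exceeded the highest RC NoDS library by little, and the log2 fold change was 0.25 (SE 0.04995, edgeR adjusted p = 0.0614). Its exons overlap *gm16990* on the opposite strand. *S100b*, a calcium-binding protein made by astrocytes and by oligodendrocytes, averaged 3433 ± 784 and 2354 ± 247 (log2 fold change 0.54, adjusted p = 0.115). It was the 1 called gene of 15 astrocyte markers, of which 12 had a higher mean with a median of 0.11. Over all genes, 0.251% were called as higher, and 6378 of 12768 had a higher mean. *Aldoc* (0.22, adjusted p = 0.247) and *glul* (0.18, adjusted p = 0.630) were not called. *Sparc*, a relative of *sparcl1*, was at 0.26 (adjusted p = 0.167). Without RC NoDS replicate 1 the adjusted p was 0.334 for *sparcl1* and 0.441 for *s100b*.

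**Figure D3:**
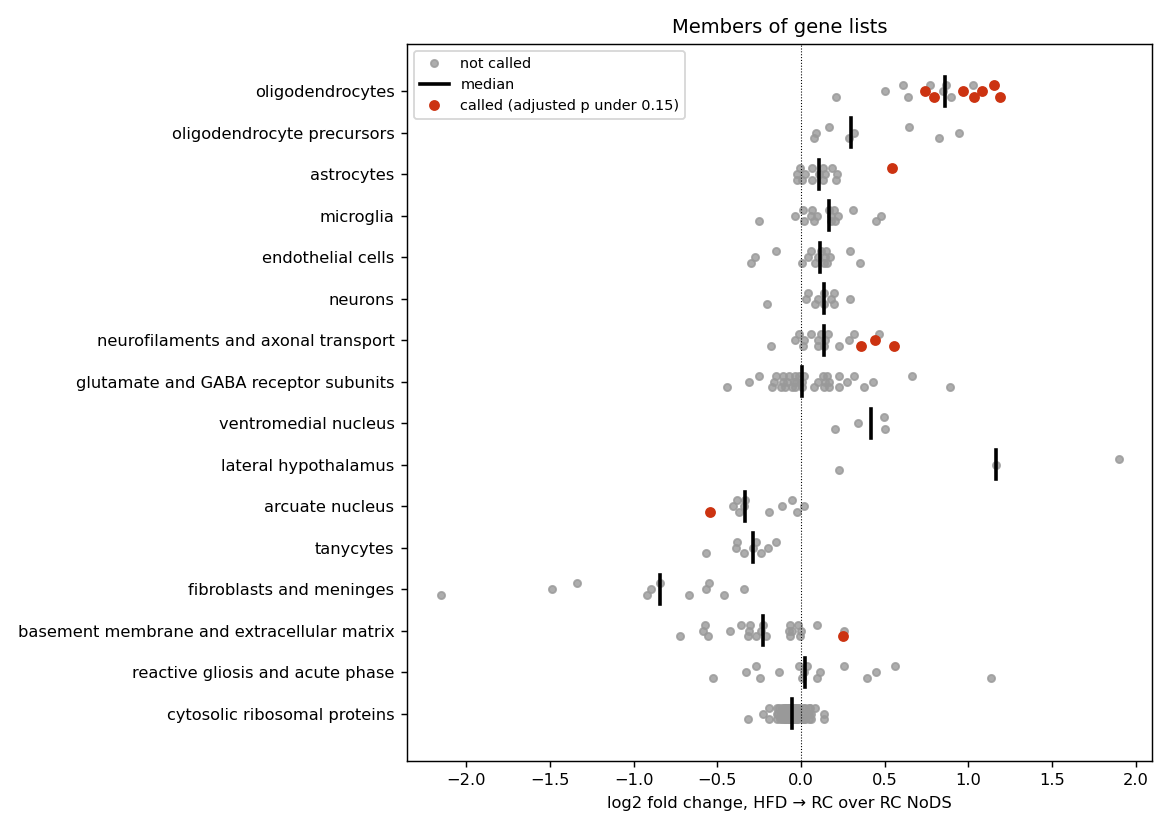
Log2 fold change (HFD → RC over RC NoDS) of each tested member of 16 gene lists, with called genes in red and a bar at each list's median. The oligodendrocyte members lie between 0.21 and 1.19 with 7 called, and all 11 members for fibroblasts and meninges lie below 0 with a median of -0.84 and none called.

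The 4 genes that fell were *6330403K07Rik*, *atic*, *isl1* and *col24a1*. *Isl1* (chr13:117088478-117099896), a transcription factor of arcuate neurons that make *pomc* and other peptides, had 906, 787, 699, 715 and 768 normalized counts in RC NoDS and 504, 618, 413, 559.5 and 559 in HFD → RC libraries. The groups did not overlap, and the log2 fold change was -0.55 (SE 0.135, edgeR adjusted p = 0.145). *6330403K07Rik*, an abundant transcript at chr11:70845451-70847015 on the minus strand, fell from 29709 ± 2233 to 24732 ± 1999.6 without overlap (log2 fold change -0.26, adjusted p = 0.110). *Atic*, an enzyme of purine synthesis, fell from 1675 ± 147 to 1295 ± 163 (-0.37, adjusted p = 0.140), with 4 of 5 HFD → RC libraries below all RC NoDS libraries. *Col24a1*, a fibrillar collagen, had 225, 196, 163, 237 and 162 in RC NoDS and 76.2, 134, 61.1, 90.9 and 109 in HFD → RC libraries, also without overlap (-1.06, adjusted p = 0.146). Without RC NoDS replicate 1 the adjusted p was 0.441 for *6330403K07Rik* and *atic*, 0.458 for *isl1* and 0.452 for *col24a1*, and none of the 4 was called without HFD → RC replicate 13, 14 or 15 or RC NoDS replicate 2 or 5.

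Of the 69 genes whose HFD → RC libraries all lay below RC NoDS, 7 that were not called had the next smallest p. *Cyp26b1*, which breaks down retinoic acid, had 191, 131, 144, 165 and 157 normalized counts in RC NoDS and 56.2, 102, 37.7, 28.0 and 53.8 in HFD → RC libraries (log2 fold change -1.502, edgeR adjusted p = 0.159). *Usp51*, a deubiquitinase, was at -0.74 (adjusted p = 0.164), *cfh*, an inhibitor of complement, at -1.12 (0.167), and *igsf9*, an adhesion protein, at -0.53 (0.167). *Rnpc3*, a protein of the minor spliceosome whose exons overlap *amy1*, was at -0.68 (0.193). *Ikbke*, a kinase of innate immune signalling, was at -1.36 (0.206), and *fbxw9*, an F-box protein that overlaps another gene on the opposite strand, at -0.43 (0.215). *Isl1*, *igsf9* and *fbxw9* also had all HFD → RC libraries below all HFD NoDS libraries, and *trh* lay between both NoDS groups without overlap with either. For *igsf9* the HFD NoDS libraries had 731, 471, 645, 604 and 562 and the HFD → RC libraries 339, 346, 363, 462 and 440.2.

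No peptide that drives feeding was called by edgeR. Of 8 tested peptides that drive feeding, 5 had a higher mean in HFD → RC, and edgeR called 0 (2 higher and 1 lower at an unadjusted p under 0.05), as did DESeq2 and limma-voom. Limma-voom with library weights called 1, *npy*, as lower (adjusted p = 0.107). *Agrp* had 1259.8, 1117, 1201, 1442 and 1219.5 normalized counts in RC NoDS and 1001, 1288, 634, 544 and 1470.0 in HFD → RC libraries. HFD → RC replicates 13, 15 and 16 were below all RC NoDS libraries, replicate 14 was among them and replicate 17 above them. The HFD NoDS libraries had 429.8, 691, 571, 894 and 609, a range that also held replicates 15 and 16. The log2 fold change was -0.34 (SE 0.194, adjusted p = 0.693). *Npy*, made by the same neurons, had 4901, 4292, 4218, 5712 and 4704 in RC NoDS and 3067, 5265, 2717, 2829.7 and 4555 in HFD → RC libraries. Replicates 13, 15 and 16 were below all RC NoDS libraries and replicates 14 and 17 among them (log2 fold change -0.37, SE 0.157, adjusted p = 0.534). HFD NoDS over RC NoDS, which shares the RC NoDS libraries, was -0.97 for *agrp* (adjusted p = 0.0507) and -1.26 for *npy* (adjusted p = 7.79e-05).

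*Hcrt*, the orexin precursor of the lateral hypothalamus, had 73.3, 68.6, 93.1, 28.0 and 104 normalized counts in RC NoDS and 438, 258, 219, 86.9 and 367 in HFD → RC libraries. Replicate 16 lay within the RC NoDS range and the other 4 above it, and the log2 fold change of 1.90 (SE 0.549) did not pass (edgeR adjusted p = 0.206). *Hcrt* was also one of the genes on which punches had been selected, and selection and diet cannot be told apart for it. *Qrfp* (1.16, adjusted p = 0.581) and *pmch* (0.23, adjusted p = 0.924), of the same region, were not called. *Gal* was at 0.03 (adjusted p = 0.970) and *pnoc* at -0.24 (0.668). *Apln*, the apelin precursor, averaged 396 ± 75.0 in HFD → RC and 258 ± 29.4 in RC NoDS libraries (log2 fold change 0.62, adjusted p = 0.167) and was not called.

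Among 11 tested peptides that restrain feeding, *trh* was the 1 called by edgeR, DESeq2 called 2, and the median log2 fold change was 0.02. That median changed sign in 6 settings and was -0.06 without HFD → RC replicate 14 and 0.10 without RC NoDS replicate 6. *Pomc* had 6318, 4913, 6633, 8062 and 9480.3 normalized counts in RC NoDS and 5433, 9962, 8640.2, 6695 and 5161 in HFD → RC libraries, a log2 fold change of 0.02 (SE 0.177, edgeR adjusted p = 0.984), and the groups overlapped through most of their range. *Cartpt* was at 0.15 (adjusted p = 0.813). *Bdnf*, a neurotrophin that lowers food intake in the ventromedial nucleus, had 246, 274, 283, 240.0 and 238 in RC NoDS and 342, 425, 480.5, 352 and 327 in HFD → RC libraries. All 5 HFD → RC libraries were above RC NoDS, but the log2 fold change of 0.59 (SE 0.160) missed the threshold (adjusted p = 0.170). *Adcyap1*, of the same nucleus, averaged 1717 ± 369 and 1221 ± 319 (log2 fold change 0.49, adjusted p = 0.414). *Oxt* (-0.24), *nts* (0.15), *cck* (-0.43), *tac1* (-0.21), *nmb* (-0.33) and *nucb2* (-0.01) had adjusted p-values between 0.828 and 0.988.

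*Trh* stood alone in the thyroid hormone axis, with 12 genes tested, 4 of them with a higher mean and 1 called, and a median log2 fold change of -0.13 (-0.09 without RC NoDS replicate 5). The enzyme that inactivates the peptide, *trhde*, was at 0.31 (SE 0.233, edgeR adjusted p = 0.770), and *pgpep1*, which also cleaves it, at -0.11 (0.882). The receptor *trhr* averaged 74.8 ± 29.5 in HFD → RC and 85.2 ± 24.4 in RC NoDS libraries (-0.19, adjusted p = 0.953). Of genes that handle thyroid hormone, *dio2*, the tanycyte enzyme that activates it, was at -0.20 (0.861), *slco1c1*, a transporter of it, at 0.19 (0.859), and *crym*, which binds it in the cytosol, at -0.29 (0.721). The receptors *thra* and *thrb* were at 0.10 (0.745) and -0.17 (0.788). The hormone-responsive genes *klf9* and *hr* were at -0.12 (0.828) and -0.15 (0.874).

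Markers of hypothalamic regions differed in sign between regions. Of 11 arcuate genes 1 had a higher mean and the median was -0.34, with *isl1* called; *tbx3* was at -0.38 (edgeR adjusted p = 0.531). The summed arcuate counts were 17551, 14411, 16147, 20834 and 20847 in RC NoDS and 12819, 21795, 15075, 13969 and 15444 in HFD → RC libraries. These sums overlapped, with HFD → RC replicate 14 the highest of all. The arcuate median was -0.18 without HFD → RC replicate 16 and -0.45 without replicate 14. The 4 ventromedial genes all had higher means (median 0.42, 2 at an unadjusted p under 0.05), among them *nr5a1*, the factor that defines that nucleus (0.50, adjusted p = 0.608), and DESeq2 and limma-voom, like edgeR, called none. The ventromedial median was 0.19 without HFD → RC replicate 15 and 0.26 with the share at 0 as a covariate. The 3 lateral hypothalamic genes, *hcrt*, *qrfp* and *pmch* as given above, had higher means as well (median 1.16, and 0.69 with no filter on low counts). That median is the value of *qrfp*, and punches had been selected on *hcrt*. Summed counts of the list were 1013, 1882, 826, 478 and 538 in RC NoDS and 1905, 1016, 1266, 1537 and 1116 in HFD → RC libraries, so RC NoDS replicate 2 lay within the HFD → RC range. The sums averaged 947 in RC NoDS, 1368 in HFD → RC, 1799 in RC → HFD and 1709 in HFD NoDS libraries. Of 3 mammillary genes 2 had higher means (median 0.60), and the median changed sign in 6 settings, to -0.86 at the lowest. Among them *foxb1* had 56.7, 41.2, 30.7, 35 and 27.8 in RC NoDS and 398, 21.2, 27.5, 19.0 and 249 in HFD → RC libraries. HFD → RC replicates 13 and 17 were high and the other 3 below all RC NoDS libraries (1.90, adjusted p = 0.271). Paraventricular and supraoptic genes (3 tested) had a median of -0.24 (-0.66 without HFD → RC replicate 14 and -0.09 without RC NoDS replicate 6) and an *avp* value of -0.44 (SE 0.441). Among 3 dorsomedial and suprachiasmatic genes 2 had higher means (median 0.63), and *lhx1* was called. That median ran from 0.24 without HFD → RC replicate 16 to 1.04 without RC NoDS replicate 2. What the border of the punch gave to these differences was not tested.

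Tanycyte markers and markers of fibroblasts and meninges had lower means, without a call by edgeR. Both switched groups had lower mean sums than both NoDS groups, with libraries that overlapped. In RC NoDS, HFD → RC, RC → HFD and HFD NoDS the tanycyte sums averaged 9949, 7801, 7337 and 10084. Sums for fibroblasts and meninges averaged 5597, 3205, 2890 and 5991. The cause was not tested. Over all genes, 2.94% were lower at an unadjusted p under 0.05. All 9 tanycyte markers had lower means in HFD → RC with a median log2 fold change of -0.29, edgeR called none (3 at an unadjusted p under 0.05), DESeq2 and limma-voom with library weights called 1 and limma-voom none. With the share at 0 as a covariate the median was -0.43. Their sums were 10566, 9379, 7885, 10858 and 11057 in RC NoDS and 7103, 10059, 5970, 7461 and 8411 in HFD → RC libraries, which overlap. *Frzb*, a secreted inhibitor of Wnt signals, averaged 482 ± 134 and 715 ± 80.9 (-0.57, adjusted p = 0.206). All 11 markers of fibroblasts and meninges had lower means with a median of -0.84, and edgeR (3 at an unadjusted p under 0.05), DESeq2 and limma-voom called none. The median was -1.22 with the share at 0 as a covariate and -1.28 with library weights in limma-voom. *Dcn*, the most abundant of them per kilobase, had 503, 1176, 782, 828.9 and 1296 in RC NoDS and 593, 624, 133, 226 and 886 in HFD → RC libraries, with replicates 15 and 16 low. *Ogn* had 36.2, 147, 168, 62.0 and 93.2 in RC NoDS and 18.1, 53.5, 7.13, 0 and 34.9 in HFD → RC libraries (-2.15, SE 0.702, adjusted p = 0.313), and replicate 16 had no read of it. Of 23 genes of the basement membrane and matrix, 19 had lower means (median -0.23, and -0.11 without HFD → RC replicate 16), and *sparcl1*, which was higher, was the 1 called.

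Markers of several other cell types had more higher than lower means, without a call. Higher means were found for 15 of 17 microglial markers (median 0.17), 13 of 16 endothelial markers (0.11), 10 of 11 neuronal markers (0.14), 8 of 10 markers of ciliated ependymal cells (0.20) and 7 of 11 of pericytes and smooth muscle (0.03). Of 4 markers of inhibitory and excitatory neurons, 3 had lower means (median -0.11, 1 lower at an unadjusted p under 0.05). With the share at 0 as a covariate the median was 0.07 for microglia, 0.04 for ependymal cells and -0.19 for pericytes and smooth muscle. It was 0.08 for neurons without HFD → RC replicate 15, and for endothelial cells 0.07 with limma-trend and 0.17 without RC NoDS replicate 6. EdgeR, DESeq2 and limma-voom called none of these, with 3 microglial and 4 neuronal genes higher and 1 neuronal gene lower at an unadjusted p under 0.05. *Tyrobp*, a microglial adaptor, was at 0.45 (edgeR adjusted p = 0.531) and *csf1r* at 0.22 (0.471). Blood and pituitary transcripts were uneven between single libraries. *Hbb-b1* averaged 1678 ± 1136 in HFD → RC and 2027 ± 307 in RC NoDS libraries (adjusted p = 0.883). *Gh*, growth hormone of the pituitary, had 2009 normalized counts in HFD → RC replicate 13 and 182 in RC NoDS replicate 6, and at most 4.07 in the other 8 libraries.

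Glial reaction, inflammation and metabolism showed few differences. Of 16 genes of reactive gliosis and the acute phase, 10 had a higher mean with a median of 0.03, edgeR and limma-voom called none (2 higher and 1 lower at an unadjusted p under 0.05), DESeq2 called 1 and limma-voom with library weights 2. *C4b*, a complement component of reactive astrocytes, averaged 1272 ± 228 in HFD → RC and 862 ± 199.7 in RC NoDS libraries (log2 fold change 0.56, edgeR adjusted p = 0.212), and *serpina3n* 3734 ± 961 and 3131 ± 500.5 (0.25, 0.673). *Osmr*, the oncostatin M receptor, had 29.3, 37.3, 28.7, 25.0 and 25.8 in RC NoDS and 52.1, 54.5, 57.0, 77.9 and 79.7 in HFD → RC libraries, without overlap but not called (1.13, 0.247). Inflammatory genes (14 tested, median -0.10) and interferon and antigen presentation genes (18 tested, median -0.08) were not called by edgeR, DESeq2 or limma-voom, with 0 and 1 genes at an unadjusted p under 0.05, and the first median was -0.18 with the share at 0 as a covariate. The medians of these 2 lists were -0.05 and -0.00 without RC NoDS replicate 6. The 79 tested oxidative phosphorylation subunits had a median of 0.02, 77 cytosolic ribosomal proteins of -0.06 with 60 lower, 18 glycolytic genes of 0.08 with 15 higher, 21 cholesterol synthesis genes of 0.02 and 13 fatty acid synthesis genes of 0.08, and edgeR called none of them. At an unadjusted p under 0.05 these lists held 2, 4, 3, 3 and 2 genes. DESeq2 called 1 ribosomal gene and limma-voom with library weights 1 glycolytic gene. The medians of oxidative phosphorylation, cholesterol synthesis and gliosis genes changed sign in some settings. That of ribosomal proteins was -0.03 without RC NoDS replicate 6, and without HFD → RC replicate 15 that of fatty acid synthesis was 0.04 and of glycolysis 0.05. *Rpl30* was the ribosomal gene with the smallest p, at -0.23 (adjusted p = 0.247), with all HFD → RC libraries below RC NoDS.

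Receptors and signalling genes for feeding cues were called by none of edgeR, DESeq2 and limma-voom, and library weights in limma-voom called 1 receptor. Of 22 receptor genes 15 had a lower mean (median -0.06, 3 lower at an unadjusted p under 0.05). *Ghsr*, the ghrelin receptor, averaged 230.3 ± 82.7 in HFD → RC and 362 ± 94.0 in RC NoDS libraries (log2 fold change -0.65, edgeR adjusted p = 0.325), and *lepr*, the leptin receptor, 106 ± 37.9 and 172 ± 49.6 (-0.70, 0.489). Leptin and insulin signalling genes (25 tested) had a median of -0.04, with *foxo1* at -0.28 (0.502), all HFD → RC libraries below RC NoDS, and 2 genes at an unadjusted p under 0.05. *Igfbp2*, a carrier of insulin-like growth factors, was at -1.08 (SE 0.5003, adjusted p = 0.598). Of 37 glutamate and GABA receptor subunits with a median of 0.00, *grm3* had 240.4, 197, 268, 179 and 155 in RC NoDS and 338, 286, 325, 349 and 351 in HFD → RC libraries, which did not overlap (0.66, 0.193), and *gabre* was at -0.44 (0.170). In that list edgeR and limma-voom called none (5 higher and 1 lower at an unadjusted p under 0.05), DESeq2 called 2 and limma-voom with library weights 3. For the circadian clock (19 tested) the median was 0.01 and for immediate early genes (21 tested) -0.06, with 3 genes and 1 gene at an unadjusted p under 0.05 and none called by edgeR, DESeq2 or limma-voom. These 2 medians and that of the receptor subunits changed sign with single libraries left out, the clock to -0.02 without RC NoDS replicate 1 and immediate early genes to 0.04 without RC NoDS replicate 5. The median was -0.02 for feeding receptors without RC NoDS replicate 2 and -0.01 for leptin and insulin signalling without HFD → RC replicate 13.

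The same contrast of earlier diets could be made in mice that ate HFD at collection, HFD NoDS over RC → HFD, which shares no library with the chow pair. There the switched mice are the reference. In that pair 2 of 12768 genes were called (0.0157%), *c4b* at 0.98 (edgeR adjusted p = 0.0103) and *col18a1* at 0.78 (adjusted p = 0.120), named for it after their values had been seen. Of the 36 genes called on chow, 19 had the same sign there and 17 the opposite sign, edgeR called 0 and 5 had an unadjusted p under 0.05, beside 956 of all 12768 genes; no other tool was run on that pair. For *trh* the log2 fold change was 0.66 (SE 0.153, adjusted p = 0.312), for *mobp* 0.38 (0.731), for *kif5a* -0.10 (0.827) and for *isl1* 0.30 (0.614). The oligodendrocyte markers had a median of 0.31 in the HFD pair and 0.86 in the chow pair, fibroblast and meningeal markers 1.09 and -0.84, and tanycyte markers 0.45 and -0.29.

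**Figure D4:**
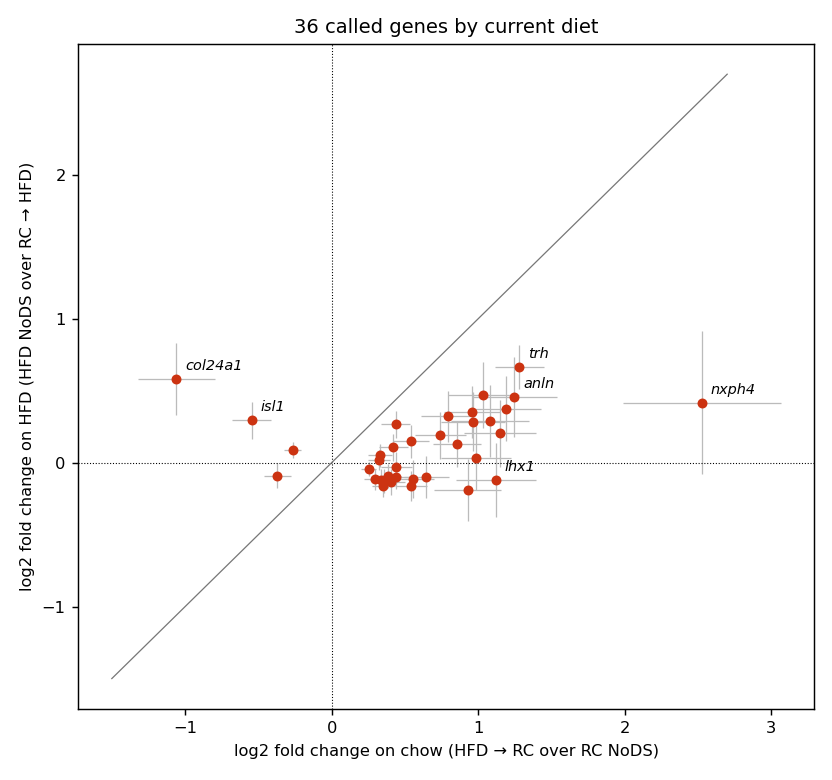
Log2 fold change of the 36 called genes in mice on chow (HFD → RC over RC NoDS, horizontal) and in mice on HFD (HFD NoDS over RC → HFD, vertical), with bars for 1 SE and a line where both are equal. On the vertical axis all points lie between -0.19 and 0.66, and the 2 pairs share no library.

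The interaction term tested the chow difference minus the HFD difference. The same term is the switched groups minus the NoDS groups, so dependence of the earlier diet on the current diet and an effect of having been switched cannot be told apart. At an adjusted p under 0.15 it called 4 of 12768 genes (0.0313%), each at an adjusted p of 0.145. *Tppp* had an interaction of 0.51 (SE 0.106), from 0.35 on chow and -0.16 on HFD. *Slc12a7*, a potassium and chloride cotransporter, had -0.95 (SE 0.192), from -0.50 and 0.45, *col18a1*, a basement membrane collagen, -1.08 (SE 0.220), from -0.30 and 0.78, and *plcxd2* 0.66 (SE 0.137), from 0.39 and -0.27. These 3 were named after their values had been seen. *Trh* did not pass (0.62, adjusted p = 0.364), nor did *mobp* (0.81, 0.445). DESeq2 called 116 genes, limma-voom 15 and limma-trend 2.

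The interaction count also turned on single libraries, which were left out in turn after the data had been seen. EdgeR called 0 genes without HFD → RC replicate 13, 15 or 17, RC NoDS replicate 1, 5 or 6, HFD NoDS replicate 21, 23 or 24 or RC → HFD replicate 7, 8, 11 or 12, with at least 934 genes at an unadjusted p under 0.05 in each. Removal of HFD NoDS replicate 20 (124 genes) or 19 (103), HFD → RC replicate 14 (44) or 16 (9), RC NoDS replicate 3 (22) or RC → HFD replicate 10 (20) or 9 (7) raised the count. With the oligodendrocyte marker level as a covariate it called 106, among them the 4 genes.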

How the data were processed

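The authors merged reads of 3 sequencer runs with Picard 2.7.1, aligned them to mm9 with STAR 2.5.1b, removed ribosomal and mitochondrial reads and re-sampled each library to the smallest before they deposited whole-read counts per gene. The libraries were made with a stranded mRNA kit. Whether counting used the strand is not given in the sources used here, so genes with overlapping exons may share reads. Counts of all 21 libraries entered 1 edgeR 4.0.16 quasi-likelihood fit (R 4.3.3) with TMM scaling and 1 mean per diet group. Genes averaging 50 or more reads were tested, p was adjusted by Benjamini-Hochberg over them, and genes under 0.15 were called. Standard errors are the log2 fold change over the square root of F. The contrast of the 5 HFD → RC with the 5 RC NoDS libraries and its interaction with current diet were tested, and library measures by exact permutation. Named genes were at most 30 called genes, the 10 higher and 10 lower genes without overlap with the smallest p, all feeding peptides and thyroid axis genes, the 2 smallest p and the most abundant gene of each other list, and genes apart from both NoDS groups. Other genes named are list members or were chosen after their values were seen. Members and lists were chosen with earlier results of these data known. DESeq2 1.42.0 and limma 3.58.1 were run as alternatives, and all tests were tried on simulated data. Promoters and figures used Python 3.11.15, pandas 2.3.3 and matplotlib 3.10.9.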

Additional observations from a re-analysis of the deposited data

Results flagged for a closer look

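Single libraries far from the other 4 of their group were looked for with Dixon's ratio, which by chance marks about 1 group in 20. The search covered the genes with values in the text, further genes of the naming rule, the library measures and the marker sums given by library. It marked 14 of 246 groups, where 12.3 would be expected by chance. The largest ratios were for *gh*, at 2009 normalized counts in HFD → RC replicate 13 (others 0 to 4.07) and 182 in RC NoDS replicate 6 (others 0 to 3.92). RC NoDS replicate 1 was low for *hpca* at 1254 (others 1361 to 1393) and *spnb1* at 1649.8 (others 2161 to 2328) and high for *tac1* at 2138 (others 1244 to 1314). RC NoDS replicate 2 was high for *rnpc3* at 378 (others 307 to 324), *npvf* at 130.4 (others 19.5 to 42.6) and *kif5b* at 4649.5 (others 3884 to 4088). RC NoDS replicate 5 was high for *ghsr* at 527 (others 293 to 338). RC NoDS replicate 6 was low for *thrb* at 774 (others 933 to 989) and high for *tyrobp* at 361 (others 215 to 255). HFD → RC replicate 17 was high for *nefh* at 1559.6 (others 1434 to 1467) and *ghsr* at 372 (others 159 to 219) and low for *foxo1* at 589.6 (others 768 to 823). No reason for these values was tested.

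The chow and HFD differences were unlike for 4 genes by the interaction term itself, which is also the difference between switched and NoDS groups, and the 2 readings cannot be told apart. The log2 values were -0.95 for *slc12a7*, -1.08 for *col18a1*, 0.66 for *plcxd2* and 0.51 for *tppp*, and their calls ended without any of 13 single libraries. Technical and biological reasons were not tested.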

How the results depend on the processing

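*Trh* kept its direction and its call in all 37 alternatives for named genes, of which 35 were planned and 2 were chosen after the data had been seen. The other 35 called genes each lost the call in at least 1 alternative, and the one kept least was called in 11. Only *mbp* changed sign, to -0.0218 (adjusted p = 0.957) with the oligodendrocyte marker level as a covariate, which by construction removes what follows that level. Of 160 named genes that were not called, 29 were called in at least 1 alternative and 36 changed sign. The median of 31 of 54 lists kept its sign throughout, and that of 44 stayed within 1 SD between libraries.

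The count of called genes, 36 in the edgeR fit, moved by over 1.5 times in many alternatives. It was 147 with DESeq2, 7 with limma-voom, 7 with limma-trend and 245 with limma-voom and library weights. It was 10 with library size scaling, 10 with upper-quartile scaling and 131 with the trend on gene length and GC content removed. With the share of low genes at 0 as a covariate it was 1, with the oligodendrocyte marker level 3, and without both HFD → RC replicates 14 and 17 it was 1. At an adjusted p under 0.05 it was 1 and under 0.10 it was 9, since a stricter threshold passes fewer genes. It stayed between 25 and 44 with robust dispersion, DESeq2 size factors, the Low Filter, no filter, only the 2 groups and reads summed by symbol. Leaving out 1 library gave 1 (HFD → RC replicate 13 among others) to 205 (HFD → RC replicate 16). Apart from the threshold, the cause was not tested.

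The interaction count, 4 in the edgeR fit, was 116 with DESeq2, 15 with limma-voom, 2 with limma-trend and 298 with library weights. It was 0 with DESeq2 size factors, 0 with the Low Filter, 2 with library size scaling, 2 with upper-quartile scaling, 33 with the share at 0 and 106 with the oligodendrocyte marker level as a covariate. Leaving out 1 library, an alternative chosen after the data had been seen, gave 0 (HFD NoDS replicate 21 among others) to 124 (HFD NoDS replicate 20), and the cause was not tested.

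Genes without overlap numbered 173, 168 on deposited counts, and 233 (without RC NoDS replicate 1) to 527 (without HFD → RC replicate 16) with 1 library fewer, where fewer values must separate. The difference in the share at 0 was 13.3 percentage points, and 11.6 over genes averaging 10 to 30 reads (exact permutation p = 0.0159 in both). No paired analysis was possible because no replicate number is shared between groups. Totals were matched by re-sampling, but the genes detected per library were not, from 15733 to 18247 in these 10 libraries. The filter set which genes were tested, and with no filter 30 genes were called, 27 of them among the 36.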
